A study of Homo sapiens with 12 samples.

Results

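The 8 control libraries of the NCCIT experiment were examined on their own, as a record of the genes that these embryonal carcinoma cells transcribed in lines whose guide RNA arrays were controls. They were chosen by their labels and made up 8 of the 12 libraries of the series. NCCIT (ATCC CRL-2073) is an established human line grown from a germ cell tumour. Each of the 4 control lines carried a PiggyBac transgene for a doxycycline-inducible dCas9 fusion, puromycin selected, followed by a PiggyBac array of guide RNAs, G418 selected. The fusion was either dCas9-VPR, in which catalytically dead Cas9 of S. pyogenes is joined to an activation domain, or dCas9-KRAB, in which it is joined to a repression domain. The array was either LTR5HS Sa, whose guides carry the S. aureus scaffold and are not meant to assemble with this dCas9, or nontarget Sp, whose guides have the right scaffold and were designed to pair nowhere in the genome. All cells received doxycycline for 4 days, so that both fusions were present in the controls as well, and each line gave 2 biological replicate libraries. Whether the lines were clones or pools is not given in the sources used here. The array was added to cells that already held the fusion, so the effect of a fusion and the history of the cells that carried it cannot be told apart.

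Embryonal carcinoma cells are the malignant counterpart of the pluripotent cells of the early embryo. Such cells are known for a network in which POU5F1 (OCT4), SOX2 and NANOG bind side by side, keep one another transcribed and hold the regulators of the germ layers and of trophoblast silent. FGF and Nodal signals feed this network in the primed state, the state of cultured human embryonic stem cells. The naive state is an earlier one that relies on other factors, such as KLF17 and DPPA5. In tumour diagnosis, embryonal carcinoma is told from seminoma by SOX2, CD30 (TNFRSF8) and keratins, and seminoma by KIT and SOX17.

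The level of a gene is given in TPM, the count per base of gene length scaled to the same total in each library. A gene was called on at a mean of 1 TPM or more and off under 0.1 TPM. The libraries held 13601701 to 69797411 counts, and a floor of 3 counts corresponded to 0.0430 to 0.221 CPM, the count scaled to the same total without a division by length. The deepest library was dCas9-KRAB nontarget Sp replicate 2, in which 1.83% of the counts were from 2 ribosomal RNA genes, against 0.325% to 0.556% in the other 7. Of the 26641 genes, 13132 were at 1 TPM or more in all 8 libraries and 5223 were under 0.1 TPM in all 8. The number on in a single library lay between 14296 and 15259. By the mean of the 8 libraries, 27.2% of all genes were off and 16.3% lay between the limits, with the rest on.

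The length that TPM divides by was that in the deposited table, and it was checked against the exons of GENCODE 44. For 198 of 224 genes in the HLA region of chromosome 6 (hg38) the deposited length was more than 2 times the annotated one, against 631 of 24068 genes elsewhere. The deposited length over the annotated one had a median of 5.10 in that region and 0.804 elsewhere. The median TPM was 0.0228 in that region and 3.45 outside it, and how much of this gap comes from the length was not tested. POU5F1, at chr6:31164337-31180731, is one of the genes of inflated length. Levels of genes in this region are therefore too low against other genes, while differences between libraries do not depend on the length.

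The 4 lines did not share a single baseline. The correlation of log2 CPM over genes (Pearson's r) was 0.986 to 0.992 between the replicates of a line, 0.975 to 0.987 between the arrays of a fusion and 0.905 to 0.948 between libraries of different fusions, which describes the libraries and is not a test. In edgeR's quasi-likelihood F-test on the counts with Benjamini-Hochberg adjustment, 8876 of 16192 genes tested (54.8%) differed among the 4 lines. Between the fusions, 9688 genes (59.8%) differed, of which 4753 (29.4%) were higher and 4935 (30.5%) lower with dCas9-VPR. A change of 2-fold or more was called for 3336 genes (20.6%). The arrays differed at 333 genes (2.06%). For this reason, levels are given below by fusion, with the 4 libraries in the order LTR5HS Sa replicates 1 and 2 and then nontarget Sp replicates 1 and 2. Folds are log2 values ± SE for dCas9-VPR over dCas9-KRAB control lines, with p-values adjusted over the 16192 genes. The fits rest on 4 lines with 2 libraries each, so that the p-values measure the spread between replicate libraries and not between independently made lines.

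The highest genes were those of protein synthesis, the cytoskeleton and glycolysis. Among the 25 genes of highest mean TPM were 17 ribosomal proteins and 8 others. Together the 25 held 10.5% to 13.6% of all TPM, and 22 of the 25 were shared between the ranking by dCas9-VPR and that by dCas9-KRAB control libraries. By CPM, which does not divide by length, 13 of the 25 were still among the highest 25.

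GAPDH, the glycolytic glyceraldehyde-3-phosphate dehydrogenase, had a mean of 8416 ± 1442 TPM (SD, n = 8 libraries). ACTG1 and ACTB, the cytoplasmic actins, had means of 6972 ± 1140.4 and 4729 ± 549.8 TPM, and ENO1, the glycolytic enolase, one of 3311 ± 442 TPM. Both translation elongation factors, EEF2 and EEF1A1, were among the 25, at means of 4461 and 4080.5 TPM, and so was GNB2L1, the ribosome-bound scaffold now named RACK1, at 3716 TPM. The first rank belonged to MIR3654, at 6702, 9288 and 11691 TPM in the lowest, the median and the highest library. It is a microRNA locus with a deposited length of 112 bp, and whether its reads came from a longer transcript over the locus was not tested. Genes under 200 bp numbered 2232 and held 1.67% to 2.52% of all TPM.

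Of 84 ribosomal protein genes, 83 were on, and they held 12.4% to 14.1% of all TPM in dCas9-VPR and 14.7% to 16.4% in dCas9-KRAB control libraries. RPLP1, of the ribosomal stalk, stood at 3938 to 5824 against 6349 to 7250.3 TPM, and the stalk protein RPLP0 at 3761 to 4105 against 4632 to 6469 TPM. The dCas9-VPR libraries were lower for 62 of the 83 ribosomal protein genes tested (30.5% of all genes tested) and higher for 0, with 21 not past the threshold, and the median log2 fold was -0.45 over the 83 against -0.01 over all genes tested. The steepest difference among the 25 was at RPS12, with 3209, 2645, 3522 and 2785 against 5196, 5535, 5294 and 5628 TPM and a log2 fold of -1.03 ± 0.09. RPLP0 had a log2 fold of -0.69 ± 0.10 (adjusted p = 0.000175, edgeR).

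Many ribosomal protein and elongation factor messages begin with a cytosine and a run of pyrimidines, the 5′ terminal oligopyrimidine (TOP) motif, which is known to couple their translation to growth signals. Start windows of highly transcribed genes are printed here to show it, from 10 bases before the RefSeq start to the 20th base of the transcript (RefSeq, GRCh38.p14), with the first 5 transcribed bases in capitals.
RPLP1 (chr15:69452808-69452837, plus strand): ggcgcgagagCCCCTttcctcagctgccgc
RPLP0 (chr12:120201092-120201121, minus strand): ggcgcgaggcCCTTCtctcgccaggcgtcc
EEF2 (chr19:3985444-3985473, minus strand): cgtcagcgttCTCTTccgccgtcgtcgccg
EEF1A1 (chr6:73521013-73521042, minus strand): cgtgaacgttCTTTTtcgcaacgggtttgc
GAPDH (chr12:6535254-6535283, plus strand): gtgcatccctGTCCGgatgctgcgcctgcg
ENO1 (chr1:8878667-8878696, minus strand): cggcgcggacAGTATctgtgggtacccgga
A start of C followed by 4 pyrimidines was found for 43 of 67 ribosomal protein genes with a RefSeq start (64.2%) and for 10 of the 18 genes with a listed start among the 25 highest of any kind, against 781 of 17399 genes in all (4.49%). By level, the share was 2.76% among 3621 genes under 0.1 TPM and 10.5% among 1679 genes at 100 TPM or more. RPL11, whose listed start reads AAGGC, was high without it. The listed start is a single position per gene, and a mismatch says only that these letters are not there.

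**Figure D1:**
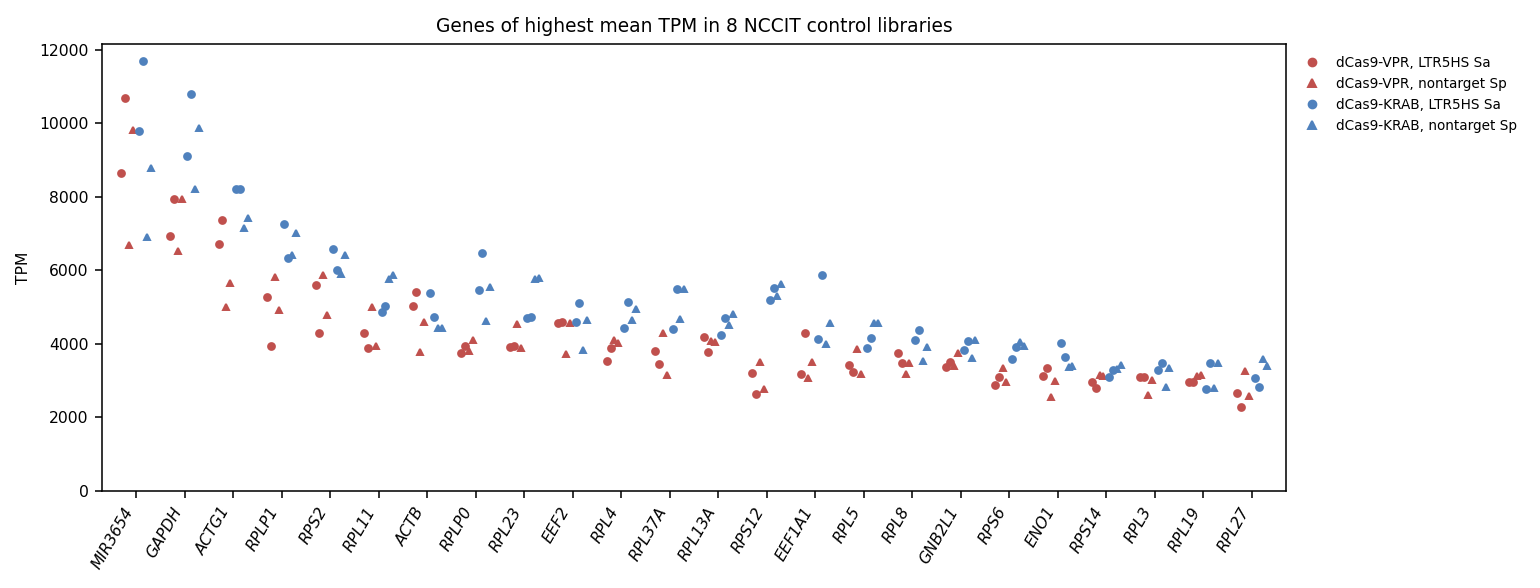
TPM of 24 of the 25 genes of highest mean level (horizontal axis, in rank order) in each of the 8 control libraries, on a linear axis; red, dCas9-VPR; blue, dCas9-KRAB; circles, LTR5HS Sa; triangles, nontarget Sp. GAPDH lay between 6516 and 10809 TPM, and RPS12 at 2645 to 3522 TPM with dCas9-VPR and 5196 to 5628 TPM with dCas9-KRAB.

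Glycolysis as a whole was on. All 19 genes of the list had a mean of 1 TPM or more, and the sum of their levels was 17934 to 20363 TPM in dCas9-VPR and 20351 to 24056 TPM in dCas9-KRAB control libraries. After GAPDH and ENO1, the highest by the mean were LDHB at 1668 to 2745 TPM, the isomerase TPI1 at 1353 to 2337 TPM and the pyruvate kinase PKM at 1474 to 1995 TPM over the 8 libraries. LDHB, the lactate dehydrogenase subunit of heart, exceeded LDHA, that of muscle, which was at 122 to 253 TPM. The glucose transporters differed in opposite directions between the fusions. SLC2A3 (GLUT3), the transporter of high affinity, stood at 236, 207, 315 and 281 TPM with dCas9-VPR and 516, 556, 573 and 510.0 TPM with dCas9-KRAB. SLC2A1 (GLUT1), the general one, stood at 189, 214, 143 and 172 against 104, 61.8, 81.7 and 73.1 TPM.

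Every gene of the core pluripotency list was on in these cells, 20 of 20 by the mean of the 8 libraries. The dCas9-KRAB control lines held them at the higher level. All 20 were called lower with dCas9-VPR, against 30.5% of all genes tested, 18 of them by 2-fold or more, and the median log2 fold was -2.28. In these bulk samples, a smaller share of pluripotent cells and less RNA per cell cannot be told apart. SOX2, the HMG-box partner of OCT4, was the highest of the list by the mean, at 506, 509, 314 and 319.7 TPM with dCas9-VPR and 744, 943, 790.0 and 846 TPM with dCas9-KRAB. Both sets were high, and its log2 fold was -1.24 ± 0.10. LIN28A, which binds RNA and blocks the processing of let-7, stood at 439.5, 538, 227 and 194 against 783, 763, 787 and 811 TPM.

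NANOG, the homeobox factor of the network at chr12:7787794-7799146, was the gene of the list that differed most. By a deposited length of 2103 bp, it stood at 3.38, 1.49, 6.86 and 1.39 TPM in the dCas9-VPR and at 139, 153, 227 and 196 TPM in the dCas9-KRAB control libraries. The 4 dCas9-VPR libraries thus held a few TPM, and the lowest dCas9-KRAB library lay far above the highest of them (log2 fold -5.98 ± 0.32, adjusted p = 1.9e-07, edgeR). Without overlap in TPM between the 4 and 4 libraries were 48.6% of all genes tested. The promoter of NANOG is known for a paired site at which SOX2 and OCT4 bind. The 250 bases before its RefSeq start (GRCh38.p14, chr12:7789152-7789401, plus strand) are printed to show the site, with the match in capitals. It is the SOX letters CATTGT, any base and the POU letters ATGCAAA, read here on the other strand.
NANOG: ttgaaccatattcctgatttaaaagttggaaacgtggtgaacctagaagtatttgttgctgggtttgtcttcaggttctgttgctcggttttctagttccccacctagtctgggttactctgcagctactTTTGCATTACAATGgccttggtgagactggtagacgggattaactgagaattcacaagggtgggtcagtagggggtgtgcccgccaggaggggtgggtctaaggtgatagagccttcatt
The match began 120 bases before the start. Searched on both strands of 300-base windows, from 250 bases before to 50 after each start, these 14 positions were found in 2 of 17399 promoters, 0.0115% of all. The other was that of NRARP, a feedback inhibitor of Notch signalling, which stood at 16.8 to 35.8 TPM with dCas9-VPR and 13.6 to 18.5 TPM with dCas9-KRAB.

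Other members of the list with steep differences are known as markers of undifferentiated cells. UTF1, a chromatin factor of pluripotent cells, stood at 12.9, 13.5, 9.77 and 6.55 TPM with dCas9-VPR and 222, 241, 155 and 183 TPM with dCas9-KRAB. ESRG, a noncoding transcript of an endogenous retrovirus of the HERV-H family, stood at 70.9, 51.7, 62.4 and 29.6 against 710.1, 579.5, 1022 and 867 TPM. L1TD1, an RNA-binding protein derived from a LINE-1 element, stood at 60.2, 37, 85.9 and 46.3 against 648, 502, 997 and 682 TPM. In each of the 3 genes, all dCas9-KRAB libraries lay above all dCas9-VPR libraries, where 48.6% of all genes tested had no overlap in either direction. TDGF1 (Cripto), the co-receptor of Nodal, stood at 16.5, 11.8, 31.7 and 13 against 188, 165, 297 and 209.9 TPM, and DNMT3B, the de novo methyltransferase of these cells, at 129, 133, 154 and 159 against 639, 546, 850.2 and 789.8 TPM. PRDM14, a repressor of differentiation genes, had a log2 fold of -2.88 ± 0.11 between 29.6 to 45.6 against 176 to 324 TPM.

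A second set differed less. SALL4, a zinc finger factor of the same network, stood at 90.8, 103, 67.5 and 69.7 TPM with dCas9-VPR and 110.2, 103, 111 and 113 TPM with dCas9-KRAB, a log2 fold of -0.61 ± 0.08, and the highest dCas9-VPR library came up to the lowest dCas9-KRAB library. LIN28B had a log2 fold of -0.69 ± 0.10 and ZFP42 (REX1) one of -1.09 ± 0.10. POU5F1 was listed at 2.33, 2.22, 2.03 and 1.83 TPM with dCas9-VPR and 8.03, 11.7, 6.64 and 9.19 TPM with dCas9-KRAB by the deposited length of 19454 bp. The annotated exon length of POU5F1 was 2870 bp. With annotated lengths for all 24292 matched genes, and only these genes scaled, its counts gave 21.0 to 26.8 and 77.9 to 135 TPM. These 2 ranges are thus on another scale than the other levels given here. Its log2 fold, which is free of the length, was -2.28 ± 0.16. FOXD3, a forkhead factor of stem cells, was the lowest, at 0 to 0.764 against 1.33 to 3.28 TPM, and the only one under 1 TPM on average with dCas9-VPR.

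**Figure D2:**
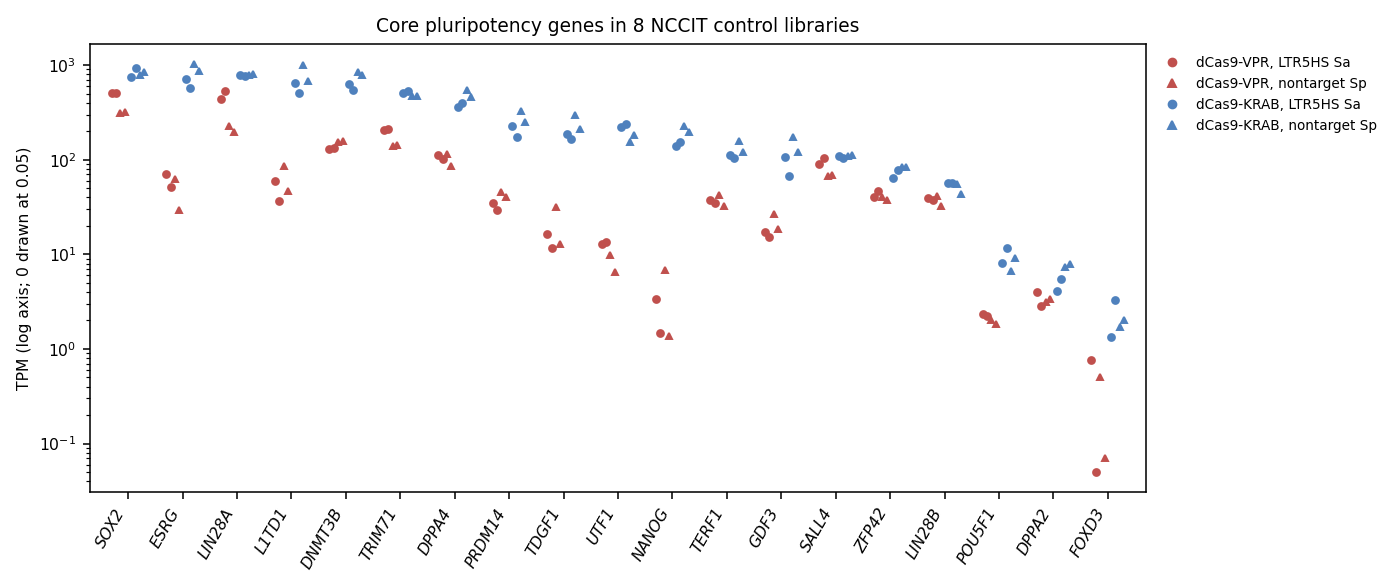
TPM (log axis, a value of 0 drawn at 0.05) of 19 of the 20 core pluripotency genes in each of the 8 control libraries, ordered by the dCas9-KRAB mean; red, dCas9-VPR; blue, dCas9-KRAB; circles, LTR5HS Sa; triangles, nontarget Sp. SOX2 lay at 314 to 943 TPM in all libraries, while NANOG lay at 1.39 to 6.86 TPM with dCas9-VPR and 139 to 227 TPM with dCas9-KRAB.

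The markers by which pathologists recognise embryonal carcinoma were all on, 16 of 16, and all 16 differed between the fusions, 11 lower and 5 higher with dCas9-VPR, against 30.5% and 29.4% of all genes tested. Of the lower ones, POU5F1, SOX2, NANOG, LIN28A, SALL4, DNMT3B, GDF3 and TDGF1 are also members of the core pluripotency list and were counted there. The 5 that were higher are epithelial genes. KRT8, the type II keratin of simple epithelia, stood at 2835, 3354, 3463 and 4368 TPM with dCas9-VPR and 879, 702, 594 and 547 TPM with dCas9-KRAB. Its partner KRT18, the type I keratin, stood at 1513, 1681, 1937 and 2343 against 686, 538, 493 and 469.6 TPM. KRT19 was at 131, 101, 175 and 233 against 8.37, 6.79, 5.0 and 6.11 TPM, a log2 fold of 4.36 ± 0.16. Over the whole keratin family, 38 of 50 genes were off, and 9 of the 10 genes tested were higher with dCas9-VPR (29.4% of all genes tested) and 0 lower. The 9 became 3 to 12 under the alternatives tried. These were 3 of 4 tested at 10 or more counts in every library and 12 of 33 without a filter on low counts. E-cadherin (CDH1), at 7.03 to 18.9 against 5.16 to 5.9 TPM, and EPCAM, at 41.8 to 62.6 against 29.8 to 38.8 TPM, differed less. TNFRSF8, which encodes CD30, was at 1.73 to 3.52 against 9.56 to 14.8 TPM, and PODXL, which carries the TRA-1-60 epitope, at 104 to 215 against 290.5 to 420.1 TPM. ALPL, an alkaline phosphatase, was at 135 to 176 against 158 to 189.6 TPM, with a log2 fold of -0.36 ± 0.10 and sets that overlapped.

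Of the seminoma and germ cell list, 6 of 14 genes were on and 3 were off. SOX17, which marks seminoma, was at 0.0617 to 0.336 TPM, far under SOX2. KIT, the stem cell factor receptor, was on in all 8 libraries at 3.91 to 4.8 TPM with dCas9-VPR and 9.57 to 18.1 TPM with dCas9-KRAB, and PDPN (podoplanin) at 121 to 177 TPM. Of the same list, DDX4 (VASA), at 0.036 to 0.148 TPM, and TCL1A, at 0 TPM in 7 libraries, were off. KLF4, shared by this list and that of the naive state, was at 13.3, 8.83, 7.12 and 7.26 against 54.6, 100.4, 56.2 and 64.7 TPM.

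DPPA3 (STELLA), a maternal-effect factor of germ cells and the naive state, had the steepest fold between the fusions in this list and in that of the naive state. It stood at 2.57, 1.58, 4.01 and 2.44 TPM with dCas9-VPR and at 58.6, 49.2, 279 and 332 TPM with dCas9-KRAB. The arrays were apart as well, 4.01 and 2.44 against 2.57 and 1.58 TPM with dCas9-VPR and 279 and 332 against 58.6 and 49.2 TPM with dCas9-KRAB, for nontarget Sp and LTR5HS Sa, and the dCas9-VPR sets overlapped. The log2 fold of LTR5HS Sa over nontarget Sp was -1.57 ± 0.20 (adjusted p = 0.00423, edgeR).

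Cells in the naive state are known to express KLF17, DPPA5 and ARGFX. KLF17 was at 0 to 0.0951 TPM and ARGFX at 0 to 0.0876 TPM over the 8 libraries. DPPA5 was listed at 0 in the 4 dCas9-VPR libraries and at 1.54, 0.286, 1.94 and 2.35 TPM in the dCas9-KRAB libraries. Of the 16 genes of the naive list, 9 were on and 3 off. Of those tested, 3 were higher with dCas9-VPR, 7 lower and 1 did not pass, where 29.4% of all genes tested were higher and 30.5% lower. Under the alternatives tried, the 7 became 3 to 8, and the median log2 fold of -1.27 ran from -2.32 to 0.25. The 3 and the median of 0.25 came from 7 genes tested at 10 or more counts in every library. SUSD2, a surface marker of naive cells, was higher with dCas9-VPR at 32.1, 33.3, 57.8 and 76.4 against 12.2, 12.8, 11.1 and 11.3 TPM. TBX3, a T-box factor, was higher too, at 17, 16.4, 23.9 and 22.3 against 2.91, 0.867, 3.43 and 1.1 TPM.

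The primed list, by contrast, was on in 11 of 12 genes, the exception being FGF5, at 0 TPM in 6 of 8 libraries. All 11 genes tested were lower with dCas9-VPR (30.5% of all genes tested), with a median log2 fold of -1.94. SFRP2, a secreted WNT antagonist, stood at 19.2, 12.3, 33.7 and 7.03 TPM with dCas9-VPR and 489, 418, 622 and 513 TPM with dCas9-KRAB. ZIC2, a zinc finger factor of primed cells, stood at 22.7, 23.1, 8.2 and 8.47 against 58.7, 77.4, 99.9 and 135 TPM. CD24, a surface glycoprotein, stood at 207, 183, 113 and 74.6 against 564, 626, 891 and 802 TPM, and OTX2, a homeobox factor, at 41.9, 39.8, 24.7 and 24.4 against 90.2, 86.7, 116 and 138 TPM. For ZIC2, OTX2 and CD24 the effect of the array differed between the fusions, with interaction log2 folds of 2.24 ± 0.28 (adjusted p = 0.00442), 1.25 ± 0.19 (0.0113) and 1.55 ± 0.22 (0.00867) in edgeR. In each of the 3, the dCas9-VPR nontarget Sp line lay lowest of the 4 lines. The call for OTX2 was lost without LTR5HS Sa replicate 1 of dCas9-VPR (adjusted p = 0.0632).

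**Figure D3:**
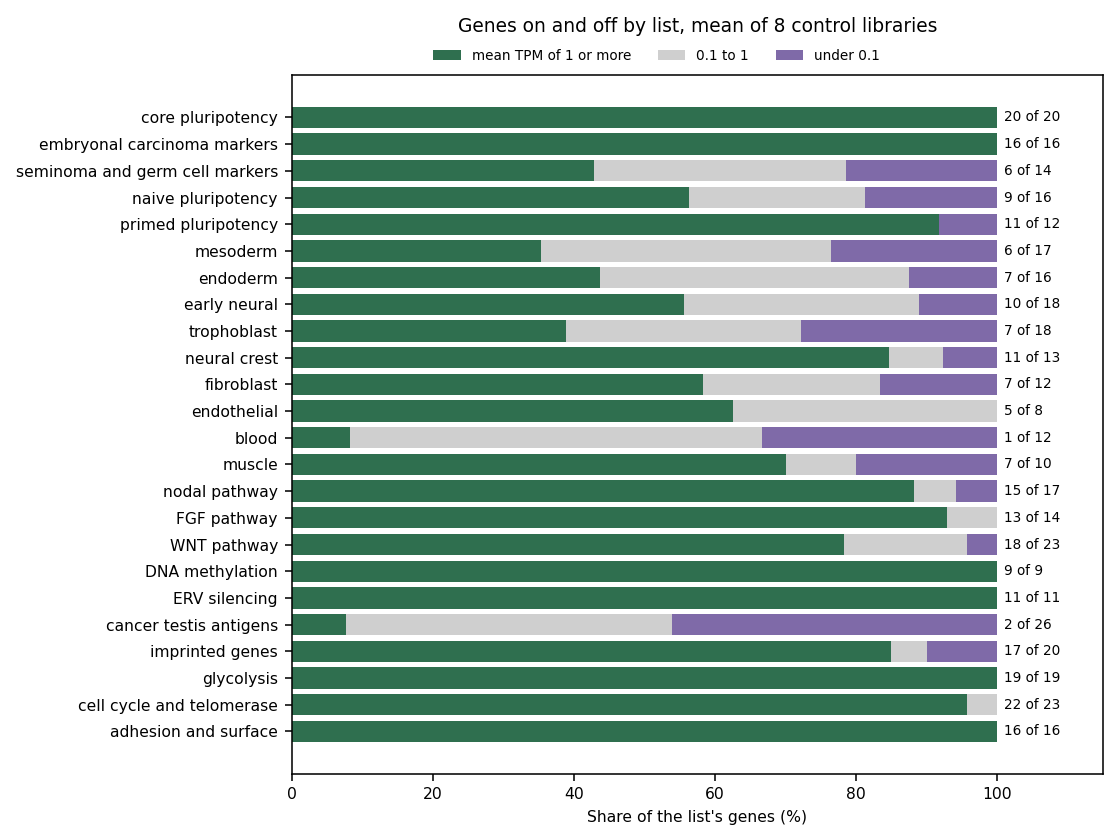
Share of the genes of each of 24 lists (bars, %) that had a mean level over the 8 control libraries of 1 TPM or more (green), of 0.1 to 1 TPM (grey) or under 0.1 TPM (purple); the number on is written beside each bar. All genes of the core pluripotency, embryonal carcinoma, DNA methylation, retrovirus silencing, glycolysis and surface lists were on, against 1 of 12 blood genes and 2 of 26 cancer testis antigens. Of all genes in the data, 27.2% were under 0.1 TPM and 16.3% at 0.1 to 1 TPM by the same mean.

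Regulators of the embryonic lineages were mostly low, with a few that were high. Of the 17 mesoderm genes, 6 were on and 4 off. TBXT (Brachyury, listed as T), the T-box factor of the primitive streak, had at most 2 counts in any library, and MSGN1, of presomitic mesoderm, had 0 counts in all 8. EOMES, another T-box factor of gastrulation, was at 0.116 to 0.333 TPM. HAND1, a bHLH factor of lateral and extraembryonic mesoderm and of trophoblast, was the exception. It stood at 248, 244, 397 and 445 TPM in the dCas9-VPR libraries and at 22.7, 5.85, 18.6 and 6.97 TPM in the dCas9-KRAB libraries. All dCas9-VPR libraries lay above all dCas9-KRAB libraries, with a log2 fold of 4.42 ± 0.35, where 48.6% of all genes tested had no overlap in either direction. MIXL1 (log2 fold 0.79), TCF15 (0.94) and FOXF1 (1.54), regulators of primitive streak, somite and visceral mesoderm, were also higher with dCas9-VPR, each at 12.1 TPM or less. With HAND1, these were the 4 of 9 tested that were higher (29.4% of all genes tested), and the other 5 did not pass between the fusions.

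NKX2-5, the cardiac homeobox factor, was set apart by the array. It was at 14.2 and 13.6 TPM in the LTR5HS Sa and 3.19 and 4.16 TPM in the nontarget Sp libraries of dCas9-VPR, and in those of dCas9-KRAB at 14 and 14 TPM with LTR5HS Sa against 3.8 and 5.54 TPM with nontarget Sp. Both LTR5HS Sa lines were higher, with a log2 fold of 1.72 ± 0.18 (adjusted p = 0.00228, edgeR), while the fold between fusions was -0.38 ± 0.17 (adjusted p = 0.0792). The latter was called without nontarget Sp replicate 1 of dCas9-KRAB (adjusted p = 0.0235, edgeR) or nontarget Sp replicate 2 of dCas9-VPR (0.0442).

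Among the 16 endoderm genes, 7 were on and 2 off. All 10 tested differed between the fusions (59.8% of all genes tested), 6 higher and 4 lower with dCas9-VPR, and the 6 became 2 to 7 under the alternatives tried. The 2 were among 4 genes tested at 10 or more counts in every library. FOXA2, a pioneer factor of definitive endoderm, was under 1 TPM in every library, at 0.454 to 0.87 against 0.0707 to 0.166 TPM. GATA4 and GATA6, factors of primitive endoderm, were at 1.53 to 3.38 against 0.0485 to 0.485 TPM and at 0.965 to 1.19 against 0.0998 to 0.282 TPM. GPC3 (glypican-3), used in diagnosis of yolk sac tumour, was the highest of the list, and it was lower with dCas9-VPR, at 59.4, 52.6, 40.4 and 33.3 against 156, 141, 181 and 184 TPM. AFP, the serum marker of yolk sac tumour, was at 0 to 0.157 TPM.

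Early neural genes were on in 10 of 18 cases, and the highest were genes of the cytoskeleton. NES, the intermediate filament nestin, stood at 759.5, 817, 478 and 509 TPM with dCas9-VPR and 313, 255, 202 and 172 TPM with dCas9-KRAB, and it was the 1 gene of the list that was higher with dCas9-VPR. TUBB3, a beta tubulin, stood at 329, 337, 215 and 238 against 384, 395, 258 and 311 TPM. Several regulators were low, but LHX2, a homeobox factor of the list, had a mean of 20.1 TPM over the 8 libraries. PAX6 was at 0.258 to 0.879 TPM, NEUROG1 at 0 to 0.113 TPM and NEUROD1 was listed at 0 TPM in 7 of 8 libraries. OLIG2, a bHLH factor of oligodendrocyte precursors, was at 1.51 to 2.09 against 4.96 to 8.47 TPM, and POU3F2, a POU factor of neural precursors, at 0.25 to 0.966 against 1.93 to 3.5 TPM. These were among 7 of 13 tested that were lower with dCas9-VPR, against 30.5% of all genes tested. The 7 became 3 to 8 under the alternatives tried, the 3 among 8 genes tested at 10 or more counts in every library.

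Of 18 trophoblast genes, 7 were on and 5 off. Those on are transcription factors and a growth factor, and those off include hormone and late genes. TFAP2A, an AP-2 factor, was at 234, 144, 123 and 70.0 TPM with dCas9-VPR and 111, 78.4, 105 and 72 TPM with dCas9-KRAB, and these sets overlapped. GATA3 was at 7.5, 5.5, 11.1 and 11.2 against 1.89, 0.921, 1.8 and 1.25 TPM, and GATA2 at 10.9, 13.6, 10.1 and 12.7 against 4.24, 3.85, 2.97 and 2.69 TPM. PGF, the placental growth factor, was at 29.1, 26.1, 38.9 and 47.7 against 7.36, 7.69, 5.24 and 6.03 TPM, and TEAD4, the partner of YAP, at 88.8, 95.9, 109 and 136 against 59.4, 55.3, 49.2 and 50.2 TPM. With HAND1, these 4 were the 5 of 8 tested that were higher with dCas9-VPR (29.4% of all genes tested). TFAP2C, which human naive and germ cells also use, was lower, at 22.2 to 29.7 against 52.5 to 60.8 TPM. GCM1, the master factor of syncytial fusion, was at 0 to 0.105 TPM and ELF5, of trophoblast stem cells, at 0 TPM in 7 of 8 libraries. CGA, the common subunit of chorionic gonadotropin, was at 0 to 0.172 TPM. CDX2, the homeobox factor of the mouse trophectoderm, was at 0.896, 0.604, 2.02 and 0.682 against 0.432, 0.401, 0.77 and 0.613 TPM, sets that overlapped.

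**Figure D4:**
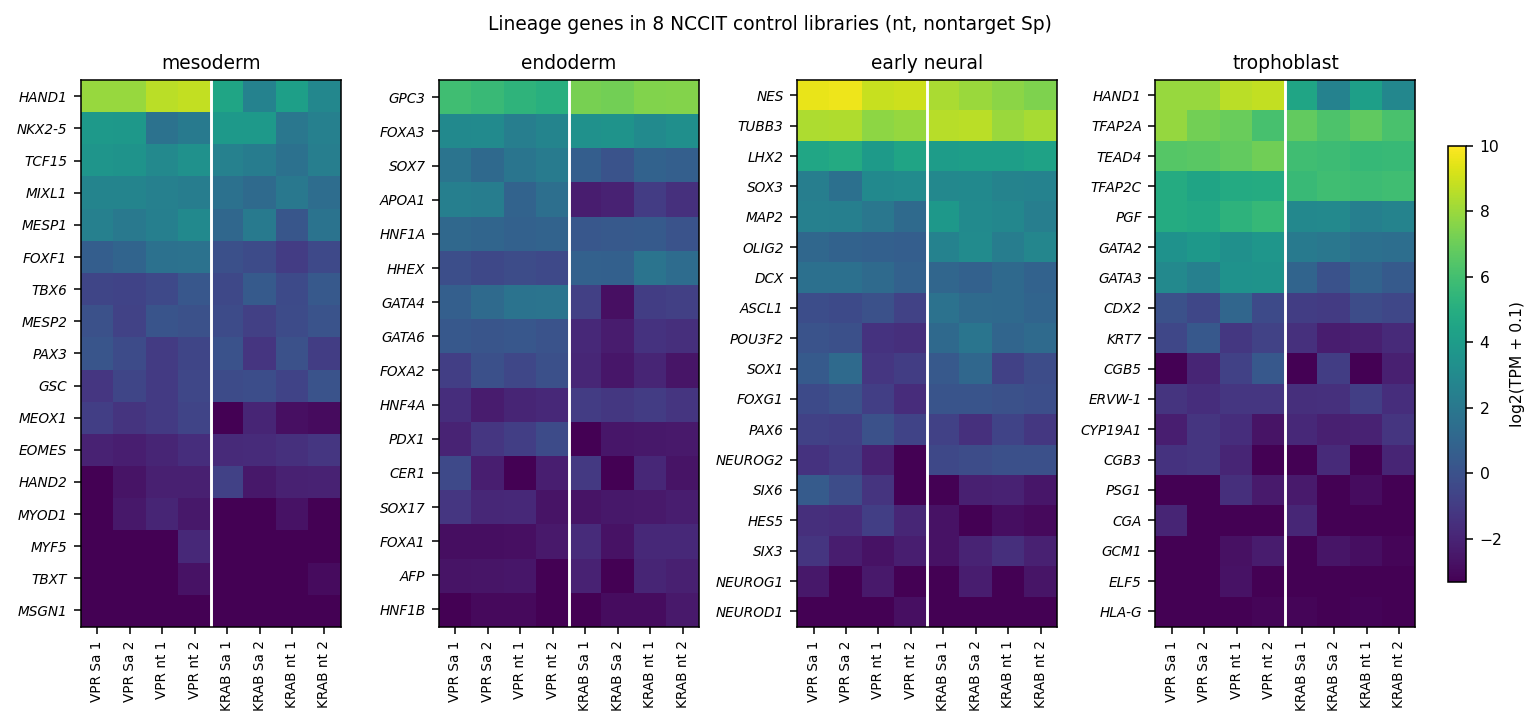
Heat map of log2(TPM + 0.1) for the genes of the mesoderm, endoderm, early neural and trophoblast lists (rows, ordered by mean) in the 8 control libraries (columns; the white line separates dCas9-VPR on the left from dCas9-KRAB on the right; Sa, LTR5HS Sa; nt, nontarget Sp). HAND1, shown in both its lists, went from 244 to 445 TPM on the left to 5.85 to 22.7 TPM on the right, and TBXT and MSGN1 were dark throughout.

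Markers of other tissues checked what else the cultures could hold. PTPRC (CD45), of all leukocytes, had at most 1 count in any library, and HBB, of red cells, had 0 counts in all. Of 12 blood genes, 1 was on, and the sum of the list was 9.18 to 11.6 TPM with dCas9-VPR and 7.07 to 9.58 TPM with dCas9-KRAB. Of 8 endothelial genes, 5 were on, among them VWF (von Willebrand factor) at 6.84 to 11.6 against 0.683 to 1.35 TPM, while the defining junction gene CDH5 (VE-cadherin) was at 0.0535 to 0.227 TPM, and the list summed to 29 to 42 TPM with dCas9-VPR and 16.2 to 26.1 TPM with dCas9-KRAB. Fibroblast markers were on in 7 of 12, mainly through VIM (vimentin) at 403 to 1089 TPM and TAGLN (transgelin), at 75 to 131 against 14.1 to 38.2 TPM. COL1A1 was at 29 to 42.1 against 2.24 to 7.48 TPM, but COL1A2, which encodes the other chain of the same collagen, at 0 to 0.0973 TPM, FAP at 0 counts in all 8 libraries and DCN (decorin) at 0 to 0.614 TPM. The fibroblast list summed to 554 to 914 TPM with dCas9-VPR and 973 to 1144 TPM with dCas9-KRAB. Of 13 neural crest genes, 11 were on. The highest after TFAP2A were MSX2 at 18 to 51.4 TPM and SNAI1 at 19.3 to 26.5 TPM, and SOX10 was at 0.521 to 3.31 TPM, with a sum over the list of 199.9 to 325 TPM with dCas9-VPR and 134 to 179.7 TPM with dCas9-KRAB.

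Among 10 muscle genes, 5 of the 8 tested were higher with dCas9-VPR (29.4% of all genes tested), and they include cardiac sarcomere genes. The 5 became 2 to 6 under the alternatives tried, the 2 among 4 genes tested at 10 or more counts in every library. The list summed to 78.7 to 102 TPM with dCas9-VPR and 67.1 to 80.1 TPM with dCas9-KRAB. TNNT2 (cardiac troponin T) was at 9.15, 9.44, 17.8 and 21.1 TPM with dCas9-VPR and 0.433, 0, 0 and 0.166 TPM with dCas9-KRAB, where no library held more than 6 counts. ACTC1 (cardiac actin) was at 0.962, 0.807, 5.48 and 5.64 against 0, 0.051, 0.144 and 0.050 TPM. The 2 dCas9-VPR lines were apart in both genes, with the nontarget Sp line higher. DES (desmin) was on in all 8 libraries at 38.5 to 63.2 TPM, and MYOG (myogenin), the skeletal regulator, was at 0 to 0.343 TPM. DES was lower with dCas9-VPR, with a log2 fold of -0.56 ± 0.09. Markers of other cell types thus also differed between the fusions, and their part in the differences of the pluripotency genes was not tested.

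Genes of the FGF pathway were mostly lower with dCas9-VPR. Of 14 genes, 13 were on and 13 were tested. All 13 differed between the fusions, 12 lower (30.5% of all genes tested) and 1 higher (29.4%) with dCas9-VPR, and their median log2 fold was -1.79 against -0.01 over all genes tested. FGF4, the ligand that OCT4 and SOX2 are known to drive, stood at 2.16, 1.16, 2.68 and 0.956 TPM with dCas9-VPR and 47, 61.6, 39.2 and 41.7 TPM with dCas9-KRAB. FGF2, the ligand of stem cell media, was at 3.33 to 8.61 against 9.43 to 15.1 TPM. Among the receptors, FGFR1 was the highest, at 353, 384, 221 and 245 against 470.0, 492, 407 and 459 TPM, and FGFR3 was the 1 gene higher with dCas9-VPR, at 123, 143, 69.5 and 79.1 against 65.1, 54.1, 37.6 and 38.3 TPM. Several genes that FGF signalling is known to induce had steep folds. ETV4, an ETS factor, stood at 5.72, 2.67, 12 and 3.75 against 226, 213, 219.8 and 214 TPM, a log2 fold of -5.44 ± 0.29. SPRY4, a feedback inhibitor, stood at 2.76, 1.9, 4.63 and 1.82 against 79.5, 77.7, 88.9 and 80.7 TPM. ETV5, the relative of ETV4, had a log2 fold of -3.72 ± 0.24, the feedback inhibitor SPRY2 one of -2.49 ± 0.10 and DUSP6, the phosphatase of ERK, one of -3.35 ± 0.36. In all 5 of these targets the 4 and 4 libraries were apart in TPM, as they were for 48.6% of all genes tested. SPRY1, a relative of SPRY2 and SPRY4 on the same list, is not among the 5.

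Of 17 genes of the Nodal pathway, 15 were on and 1 off, and 13 of 15 tested differed between the fusions, 6 higher and 7 lower with dCas9-VPR, where 59.8% of all genes tested differed. NODAL, the ligand, was near 1 TPM in every library, at 1.26, 1.84, 0.998 and 1.05 against 1.74, 1.36, 1.12 and 1.54 TPM, and did not pass the test (adjusted p = 0.191, edgeR). The ligand GDF3 and the co-receptor TDGF1 were lower with dCas9-VPR, with log2 folds of -2.75 ± 0.18 and -3.77 ± 0.23. The inhibitors LEFTY1, at 2.75, 3.32, 3.93 and 4.93 against 0.891, 1.16, 0.197 and 0.386 TPM, and LEFTY2, at 23.2, 41.3, 28.8 and 22.7 against 14.4, 6.81, 3.31 and 2.53 TPM, were higher. LEFTY genes are textbook targets of Nodal, and here they moved opposite to its co-receptor. FOXH1, the DNA-binding partner of SMAD2, was at 0.954 to 2.77 against 3.66 to 4.71 TPM. The receptor ACVR1B was at 33.1 to 55.2 TPM and the signal carrier SMAD2 at 15.9 to 22.7 TPM over all 8 libraries.

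Of 23 WNT pathway genes, 18 were on, and 21 were tested, with 11 higher and 4 lower with dCas9-VPR, against 29.4% and 30.5% of all genes tested. The ligands were low. WNT3 was at 0 to 0.282 TPM, WNT3A at 0.0488 to 0.736 TPM, and WNT8A was higher with dCas9-VPR, at 13.7, 9.45, 11.8 and 8.72 against 2.22, 2.26, 2.7 and 1.77 TPM. CTNNB1 (beta-catenin) was at 326 to 519.9 TPM and AXIN2, the common target, at 18 to 29 TPM, with no call between the fusions for AXIN2 (adjusted p = 0.355, edgeR). FZD7, the receptor typical of pluripotent cells, was at 112, 109, 54.3 and 43.9 against 289, 301, 236 and 235 TPM.

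**Figure D5:**
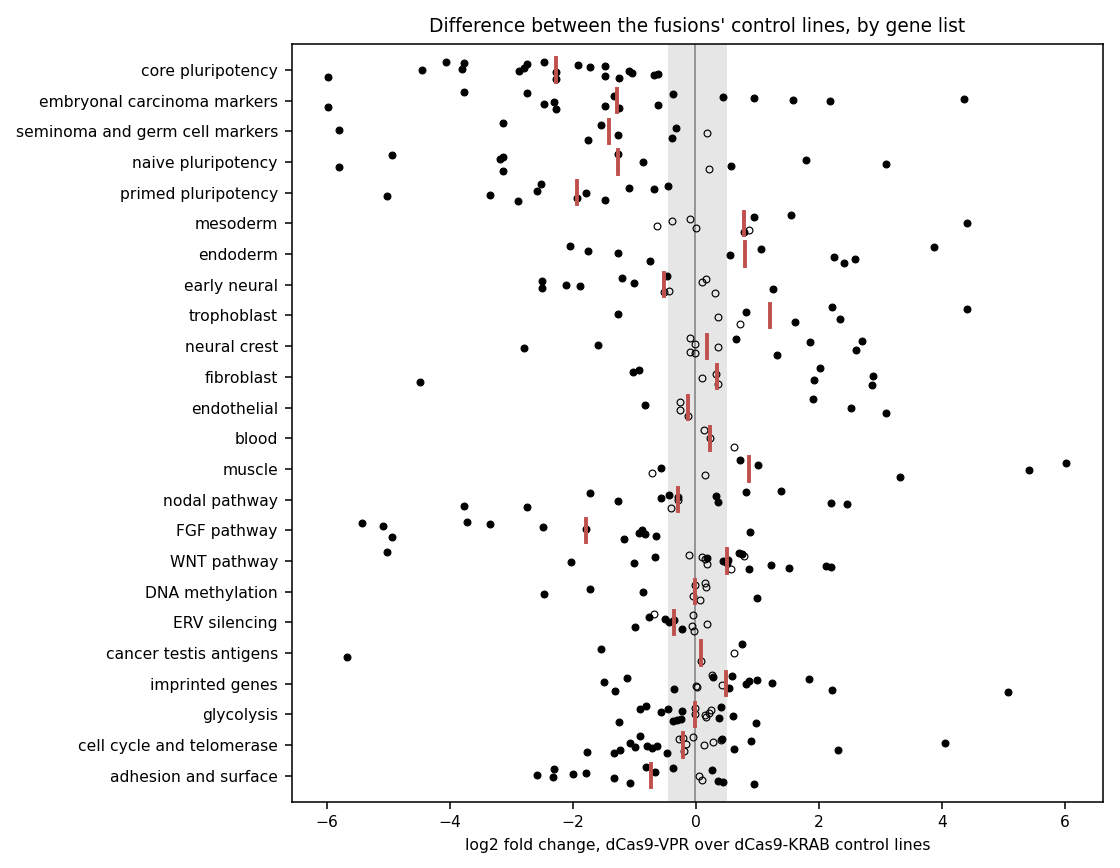
Log2 fold change of each tested gene of 24 lists between the control lines of dCas9-VPR and dCas9-KRAB (horizontal axis; positive, higher with dCas9-VPR); filled points passed an adjusted p of 0.05 in edgeR, open points did not; red bars mark each list's median, and the grey band holds the middle of all genes tested, from -0.43 to 0.49 (quartiles). To the left of the band lay the medians of the core pluripotency (-2.28), primed (-1.94), FGF (-1.79), seminoma (-1.41), embryonal carcinoma (-1.28) and naive (-1.27) lists. Those of the surface (-0.74) and early neural (-0.52) lists lay there too. To its right lay those of the trophoblast (1.21), muscle (0.86), endoderm (0.81), mesoderm (0.79) and WNT (0.51) lists.

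By the mean of the 8 libraries, all genes of DNA methylation (9 of 9) and of retrovirus silencing (11 of 11) were on, and 8 of the 9 and 10 of the 11 were on in every library. Of the methylation genes, DNMT3B differed most, as given above. The de novo enzyme DNMT3A was at 56.1 to 69.5 TPM and the maintenance enzyme DNMT1 at 121 to 173 TPM, with no call for either (adjusted p = 0.675 and 0.571, edgeR). The demethylation enzyme TET1 was lower with dCas9-VPR, at 9.85 to 15.4 against 32.2 to 39.2 TPM, and UHRF1, the cofactor of DNMT1, higher, at 25.1 to 46.3 against 14.3 to 20.0 TPM. TRIM28 (KAP1), the co-repressor that KRAB domains recruit, was at 781, 954, 519 and 697 TPM with dCas9-VPR and 701, 715, 547 and 653 TPM with dCas9-KRAB, and the sets overlapped (log2 fold -0.03 ± 0.13). SETDB1, the methyltransferase of H3K9 that TRIM28 brings, was at 76.2 to 86.7 TPM. Of the 11 silencing genes, 6 were lower and 0 higher with dCas9-VPR, none by 2-fold or more, while 59.8% of all genes tested were called in either direction and 30.5% were lower. The highest of the HP1 genes, CBX1, was at 156 to 169.5 against 197 to 208 TPM.

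Cancer testis antigens, which many tumours express, were mostly silent here: 2 of 26 were on and 12 were off. MAGEA1 was at 0 to 0.087 TPM and PRAME, with 0 counts in all 8 libraries, was listed at 0. CTAG2 (LAGE-1) was high in every library, at 364, 386, 314 and 376 against 320.1, 329, 257 and 285 TPM, without a call between the fusions (adjusted p = 0.459, edgeR). Its near copy CTAG1B (NY-ESO-1) was listed at 0. Counts of such near-identical X-linked genes depend on how reads that fit several copies were assigned, which is not stated in the sources used here. BRDT, a testis bromodomain protein, was the other gene on, at 0.227, 0.0701, 0.404 and 0 with dCas9-VPR and 6.22, 5.44, 10.8 and 10.9 TPM with dCas9-KRAB.

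Of 20 imprinted genes, 17 were on and 2 off, with 10 higher and 4 lower with dCas9-VPR among 18 tested, against 29.4% and 30.5% of all genes tested. GNAS, the stimulatory G protein, was the highest at 747, 788, 621 and 651 against 432, 443, 373 and 380.4 TPM. H19, the maternally expressed noncoding RNA, was at 14, 15.9, 38.6 and 62.2 TPM with dCas9-VPR and 1.26, 0.508, 0.677 and 0.491 TPM with dCas9-KRAB, a log2 fold of 5.07 ± 0.25. Its neighbour IGF2, expressed from the other parental copy, was off or near it in all 8 libraries, at 0.0226 to 0.199 TPM. DLK1, of the other imprinted cluster with MEG3, was at 19.5, 21.1, 6.51 and 6.97 against 2.17, 1.05, 3.66 and 2.49 TPM, and MEG3 at 0.0414 to 0.315 TPM. NDN (necdin), of the Prader-Willi region, was at 264, 276, 220.2 and 235 against 143, 123, 117 and 112 TPM.

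The cell cycle list was on in 22 of 23 genes. Of the 23, 15 were called between the fusions, 5 higher and 10 lower with dCas9-VPR, a share near the 59.8% called of all genes tested. MKI67, the proliferation antigen, was at 68.1 to 83.5 TPM and PCNA, the clamp of DNA polymerase, at 98.4 to 153 TPM, with no call between the fusions for either (adjusted p = 0.0581 and 0.609, edgeR). MKI67 was called lower with dCas9-VPR when LTR5HS Sa replicate 1 of dCas9-KRAB was left out (adjusted p = 0.0124, edgeR). CDKN1A (p21), the inhibitor of cyclin-dependent kinases, was at 26.8, 25.7, 54.1 and 66.3 TPM with dCas9-VPR and 2.36, 2.14, 1.9 and 1.95 TPM with dCas9-KRAB, a log2 fold of 4.06 ± 0.14. CCND1 (cyclin D1) was higher as well, at 163, 176, 199 and 202 against 42.8, 26, 38.6 and 24.4 TPM, while CCND2 was lower, at 121, 107, 111 and 69 against 213, 214, 217 and 189 TPM. MYC was at 17.9, 17.2, 23.3 and 19.5 against 59.1, 55.5, 57 and 60.2 TPM, and MYCN at 74, 90.8, 48.4 and 54.7 against 71.7, 64.2, 63.4 and 62.4 TPM, of which MYC passed the test and MYCN did not (adjusted p = 0.121, edgeR). TERT, the catalytic subunit of telomerase, was on in all 8 libraries at 7.08 to 16 against 19.6 to 26.6 TPM.

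All 16 adhesion and surface genes were on, 4 higher and 10 lower with dCas9-VPR, against 29.4% and 30.5% of all genes tested. CLDN6, a claudin of embryonic epithelia that is a target in germ cell tumours, led the claudin family at 248, 294, 248 and 371 against 229, 181, 190.1 and 192 TPM. CDH2 (N-cadherin) was at 42.7 to 82.1 TPM with dCas9-VPR and 109.9 to 118 TPM with dCas9-KRAB, above CDH1 in all 8 libraries. PROM1 (CD133) was at 15.7 to 19.2 against 63 to 94.5 TPM. CD9, a tetraspanin of stem cells, was at 294, 259.6, 462 and 435 against 297, 278, 317 and 304 TPM, without a call between the fusions (adjusted p = 0.607, edgeR).

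By gene family, the leading member was taken as that of highest mean TPM. SOX2 led 19 SOX genes at 621 TPM, DPPA4 led 4 DPPA genes at 272 TPM and SALL4 led 4 SALL genes at 96 TPM. FOXM1, the forkhead factor of mitotic genes, led 44 FOX genes at 192 TPM. GATA5 led the 6 GATA genes at 25.2, 39, 30.3 and 57.8 TPM with dCas9-VPR and 2.46, 3.41, 1.31 and 1.94 TPM with dCas9-KRAB. All 5 GATA genes tested were higher with dCas9-VPR, against 29.4% of all genes tested. Under the alternatives tried the 5 became 3 to 6. These were 3 of 3 tested at 10 or more counts in every library and 6 of 6 without a filter on low counts. Homeotic genes were low: 9 of 39 HOX genes were on, and the highest, HOXB2, had a mean of 7.73 TPM. The 9 PAX genes were lower still, with PAX9 highest at 2.18 TPM. The POU family was led by POU2F1 (OCT1), at 19.5 TPM, and the annotated length of POU5F1 would place that gene above it. Of 529 ZNF genes, 467 were on, and ZNF593 was highest at 181 TPM.

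The genes that varied most over the 8 libraries, among those with a median of at least 10 TPM, were ranked by the SD of log2(TPM + 0.1). The 10 highest were LINC00678, HHLA1, OC90, MIR149, FOXB2, NANOG, GABRP, LINC00428, DPPA3 and RPL39L. LINC00678, a long noncoding RNA, was at 4.11, 2.21, 11.3 and 0.909 TPM with dCas9-VPR and 240.3, 263, 371 and 335 TPM with dCas9-KRAB. HHLA1, named for a HERV-H repeat that it is transcribed with, was at 1.15, 0.38, 2.75 and 0.462 against 78.2, 68.6, 126 and 103 TPM, and its neighbour OC90, which can be read from the same repeat, at 0.591, 0, 2.84 and 0.164 against 20.0, 22.7, 33.4 and 40.8 TPM. FOXB2, a forkhead factor, was at 2.43, 0.874, 3.21 and 0.449 against 94.6, 103, 92.3 and 93.2 TPM. RPL39L, the germ cell paralogue of RPL39, was at 1.5, 1.41, 3.6 and 0.415 against 48.2, 42.1, 108 and 93.4 TPM. GABRP, a GABA receptor subunit, and MIR149, a short locus within a host gene, were higher with dCas9-VPR, at 24.2 to 134 against 0.285 to 3.28 TPM and at 19.2 to 68.8 against 0 to 4.23 TPM.

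Between the arrays, 333 genes differed, 202 (1.25%) higher and 131 (0.809%) lower in the LTR5HS Sa lines, and 87 of them (0.537%) by 2-fold or more. This count moved from 82 to 870 when single libraries were left out. Besides NKX2-5 and DPPA3, the developmental regulators past the threshold included SOX1, an early neural SOX factor, at 1.28 and 2.32 TPM in the LTR5HS Sa and 0.326 and 0.426 TPM in the nontarget Sp libraries of dCas9-VPR, and in those of dCas9-KRAB at 1.2 and 2.11 against 0.493 and 0.756 TPM. PAX7, a paired-box factor of crest and muscle, was at 4.05 and 3.13 against 0.589 and 0.392 TPM with dCas9-VPR, and at 0.574 and 0.119 against 0.219 and 0.041 TPM with dCas9-KRAB. Both were higher with LTR5HS Sa, with log2 folds of 1.77 ± 0.32 (adjusted p = 0.021) and 2.35 ± 0.46 (0.0296) in edgeR. The call for SOX1 was lost without LTR5HS Sa replicate 2 of dCas9-VPR (adjusted p = 0.0769) or of dCas9-KRAB (0.0823). That for PAX7 was lost without LTR5HS Sa replicate 1 (0.0664) or 2 (0.0619) of dCas9-VPR or replicate 1 of dCas9-KRAB (0.31). Both arrays were made as controls, but where the fusions bound DNA was not measured in these libraries. These values describe how far lines of the same fusion were apart, and the array and the line cannot be told apart.

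For 290 genes (1.79%) the array difference itself differed between the fusions. LIN28A was one of them: the LTR5HS Sa line was higher than the nontarget Sp line with dCas9-VPR, 439.5 and 538 against 227 and 194 TPM, and the lines were alike in range with dCas9-KRAB, 783 and 763 against 787 and 811 TPM (interaction log2 fold 1.26 ± 0.18, adjusted p = 0.00816, edgeR). CLDN5, the claudin of endothelium, was at 12.5 and 10.1 TPM in the LTR5HS Sa and 3.41 and 3.21 TPM in the nontarget Sp libraries of dCas9-VPR, but at 3.51 and 3.34 against 9.21 and 14.3 TPM in those of dCas9-KRAB (interaction log2 fold 3.56 ± 0.38, adjusted p = 0.00158, edgeR).

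Promoter letters were compared with the level of the genes, as a description over 17399 genes with a RefSeq start. All motifs were searched on both strands of the 300-base windows, where motifs may overlap one another. The GC box GGGCGG was found in 22.5% of promoters of genes under 0.1 TPM, 62.1% of those at 1 to 10 TPM and 73.7% of those at 100 TPM or more, against 56.0% in all. The letters CCGGAAG, which ETS factors bind, went from 3.59% to 11.9% and 25.4% over the same classes, against 13.5% in all. The TATA box letters TATAAA went the other way, from 21.1% under 0.1 TPM to 7.77% at 1 to 10 TPM and 5.96% at 100 TPM or more. The median number of CG dinucleotides in the window was 4 under 0.1 TPM and 27 at 100 TPM or more. The octamer ATGCAAAT, which POU factors bind, was in 28 of 996 promoters (2.81%) of genes that were lower with dCas9-VPR by 2-fold or more, in 17 of 1323 (1.28%) of those higher by as much, and in 1.66% of all. The GC box was in 59.8% and 62.9% of these groups.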

How the data were processed

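RNA-seq was analysed for 8 control libraries of NCCIT lines. The authors deposited a table of raw counts per gene with a gene length in bp. Per the submitters' processing notes, reads were processed with CASAVA 1.8, cutadapt 1.8.1, HISAT2 2.1.0 (hg38) and featureCounts 1.4.6-p2; the annotation and the strand setting are not given in the sources used here, so overlapping and antisense genes cannot be told apart. Libraries held 13601701 to 69797411 counts, and a floor covers counting error only.

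TPM was computed from the counts and deposited lengths. Deposited lengths were compared with GENCODE 44 exons for 24292 of 26641 genes, 1247 of them matched by an older symbol. Of the names, 28 read as dates and were not named, and some genes are not reported here. Genes were tested in R 4.3.3 with edgeR 4.0.16 (filterByExpr, TMM, glmQLFit, 4 lines with 2 libraries each) at an adjusted p of 0.05, with fusion, array and interaction contrasts averaged over lines; DESeq2 1.42.0 was an alternative, as were other filters, size factors, thinned counts, all 12 libraries in one fit and leaving out each library. On simulated counts with 200 changed genes among 15899 for the fusion contrast, edgeR recovered 88 of 100 at a log2 fold of 1 and 99 of 100 at 2, with 18 false calls. In the data, 59.8% of genes tested were called between the fusions, and a case with so many changed genes was not simulated.

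Named genes were the 25 highest, members of 24 lists (344 genes) by level or by fold, the 10 most variable at a median of 10 TPM or more, and each family's highest member. NRARP, and list members given for contrast or for their role that fall outside this rule, were chosen after their values were seen. The members and lists were chosen with earlier results of these data known. Libraries in which a fusion was directed to LTR5HS entered only the fit of all 12.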

Additional observations from a re-analysis of the deposited data

Results flagged for a closer look

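Within each set of 4 control libraries of a fusion, the highest or lowest library was compared with the other 3 for the genes named above and for library measures, by the gap to its nearest neighbour as a share of the range (Dixon's 95% limit for 4 values). The limit is one that about 1 in 20 sets passes by chance. A set with 3 libraries at 0 and 1 above 0 always passes it, so the 1 in 20 does not apply there. Of 345 sets, 29 were past the limit. In 9 of them a gene was listed at 0 in 3 dCas9-VPR libraries and above 0 in the other, at a level of 1 or a few counts: ARGFX (0.0561 TPM), CGA (0.156 TPM), DCN (0.0318 TPM), ELF5 (0.0578 TPM), FGF5 (0.0231 TPM), MAGEA1 (0.0870 TPM), NEUROD1 (0.0485 TPM), PTPRC (0.0125 TPM) and TBXT (0.0586 TPM). In 6 of them a gene was listed at 0 in 3 dCas9-KRAB libraries and above 0 in the other, at a level of 1 or a few counts: CGA (0.172 TPM), FGF5 (0.0255 TPM), MAGEA1 (0.0216 TPM), MYOG (0.0964 TPM), TBXT (0.0297 TPM) and TCL1A (0.0456 TPM). AFP was at 0 TPM in dCas9-VPR nontarget Sp replicate 2 and at 0.0646 to 0.0729 TPM in the other 3. EEF2 was at 3722 TPM in dCas9-VPR nontarget Sp replicate 1 and at 4559.6 to 4609 TPM in the other 3. LDHB was at 1867 TPM in dCas9-VPR nontarget Sp replicate 1 and at 1668 to 1697 TPM in the other 3. SOX10 was at 3.31 TPM in dCas9-VPR nontarget Sp replicate 2 and at 1.52 to 1.82 TPM in the other 3. WNT3 was at 0.282 TPM in dCas9-VPR LTR5HS Sa replicate 2 and at 0.0145 to 0.0296 TPM in the other 3. The share of ribosomal RNA was 1.83% of counts in dCas9-KRAB nontarget Sp replicate 2, against 0.370% to 0.556% in the other 3. CCND2 was at 189 TPM in dCas9-KRAB nontarget Sp replicate 2 and at 213 to 217 TPM in the other 3. DNMT1 was at 135 TPM in dCas9-KRAB LTR5HS Sa replicate 1 and at 121 to 123 TPM in the other 3. FOXH1 was at 3.66 TPM in dCas9-KRAB nontarget Sp replicate 1 and at 4.57 to 4.71 TPM in the other 3. GATA4 was at 0.0485 TPM in dCas9-KRAB LTR5HS Sa replicate 2 and at 0.439 to 0.485 TPM in the other 3. LIN28B was at 43.6 TPM in dCas9-KRAB nontarget Sp replicate 2 and at 55.3 to 57.4 TPM in the other 3. SETDB1 was at 86.7 TPM in dCas9-KRAB nontarget Sp replicate 2 and at 80.2 to 80.7 TPM in the other 3. UHRF1 was at 20.0 TPM in dCas9-KRAB LTR5HS Sa replicate 1 and at 14.3 to 14.7 TPM in the other 3. VIM was at 1089 TPM in dCas9-KRAB LTR5HS Sa replicate 2 and at 916 to 922 TPM in the other 3.

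The difference between the arrays itself differed between the fusions (edgeR, interaction term, adjusted p under the threshold) for 12 of the genes named above. Positive log2 values mean a larger LTR5HS Sa over nontarget Sp ratio with dCas9-VPR. They were CD24 at 1.55 ± 0.22 (adjusted p = 0.00867), CDKN1A at -1.43 ± 0.27 (adjusted p = 0.0286), CLDN5 at 3.56 ± 0.38 (adjusted p = 0.00158), DLK1 at 2.47 ± 0.37 (adjusted p = 0.0113), DPPA3 at 1.88 ± 0.41 (adjusted p = 0.0481), FZD7 at 0.84 ± 0.16 (adjusted p = 0.0286), GPC3 at 0.90 ± 0.17 (adjusted p = 0.0279), H19 at -2.47 ± 0.51 (adjusted p = 0.0384), LIN28A at 1.26 ± 0.18 (adjusted p = 0.00816), OTX2 at 1.25 ± 0.19 (adjusted p = 0.0113), SUSD2 at -1.21 ± 0.24 (adjusted p = 0.0327) and ZIC2 at 2.24 ± 0.28 (adjusted p = 0.00442). Of these 12 calls, 7 were lost when some single library was left out. What sets these differences was not tested.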

How the results depend on the processing

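The fusion difference in the control lines gave 8337 to 9948 genes when single libraries were left out, against 9688 with all 8, and stayed within 1.5 times of that count under the other alternatives too. The test among the 4 lines gave 7091 to 9230 genes, against 8876. The array and interaction counts moved far more. The array difference gave 333 genes, but 1284 without a filter on low counts, 731 in DESeq2, 64 at an adjusted p of 0.01 and 82 to 870 with single libraries left out. It fell to 141 without LTR5HS Sa replicate 1 and 82 without replicate 2 of dCas9-VPR, to 158 and 124 without those of dCas9-KRAB, and to 184 without nontarget Sp replicate 1 of dCas9-KRAB, and it was 870 without nontarget Sp replicate 2 of dCas9-VPR. The interaction gave 290 genes, but 1008 without the filter, 594 in DESeq2, 57 at an adjusted p of 0.01 and 89 to 676 with single libraries left out. It was 89 and 115 without LTR5HS Sa replicates 1 and 2 of dCas9-VPR, 111 and 106 without those of dCas9-KRAB, 160 and 174 without nontarget Sp replicates 1 and 2 of dCas9-KRAB, and 676 without nontarget Sp replicate 1 of dCas9-VPR. The cause was not tested. The share of the level taken by the 25 highest genes was 7.38% by CPM without length in place of 11.7%.

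The replicate numbers are shared by the lines, but 2 of the 6 correlations of the replicate differences between lines were under 0.1 (0.0630 to 0.349), so they were not shown to pair the libraries. With the replicate number as a block, the counts were 10728 for the fusion, 10772 for the lines, 1485 for the array and 803 for the interaction, and all 333 array genes were among the 1485.

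Of 123 named genes called between the fusions, 6 lost the call when some library was left out (CLDN6, CTNNB1, MEG3, NRARP, SETDB1 and SMAD2) and 9 others gained it (ACTB, CDX2, EEF2, MIR3654, MKI67, NKX2-5, TFAP2A, TPI1 and WNT3A), and of 14 called between the arrays 8 did. No named gene changed direction. Alternatives that left out ribosomal RNA, genes of inflated length or genes under 200 bp, or used annotated lengths, were chosen after seeing the data. Depth limits the genes at a few counts, for which levels and no folds are given.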
